A study of Mus musculus with 9 samples.

Results

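The enzymes that add methyl groups to histone lysines or remove them were followed at the transcript level in mouse embryos after pronuclear transfer, the moving of the parental nuclei of a fertilized egg into another egg's cytoplasm. Members were chosen by a rule on gene symbols that uses no measured value, though with earlier results of these data known. They are the Kdm and Kmt genes, the Setd genes, the Suv39h, Ehmt, Setdb and Nsd genes, Dot1l, and the core subunits of Polycomb repressive complex 2, PRC2 (Ezh1, Ezh2, Eed and Suz12). The rule found 50 of the 19359 genes in the deposited table, and all 50 were among the 14876 genes tested. A few of them are not known as histone enzymes or are gene copies, and these were kept because the rule takes them.

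Poly(A) RNA was measured in 9 libraries, each from a pool of 3 embryos collected 34 h after fertilization. The control group, SPN, had a sham pronuclear transfer, EPN had an early pronuclear transfer and LPN had the transfer at a later time, with 3 libraries (A, B and C) in each group. All 9 libraries carry the same protocol text: B6D2F1 females aged 8 to 12 weeks were primed with pregnant mare serum gonadotropin, human choriogonadotropin was added to obtain metaphase II eggs, and cytoplasts with strongly abnormal parameters were made by selective enucleation of germinal vesicle oocytes. That text does not say which embryos received such cytoplasts, and no paternal strain or gene alteration is given for any group. Whether different pools trace back to different days or matings is not in the labels. The p-values therefore describe the spread among the 9 libraries, which may be technical.

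Histone lysine methylation is written by SET domain enzymes and by Dot1l, and it is removed by the flavin-dependent enzymes Kdm1a and Kdm1b and by the Jumonji family. Methylation of histone H3 at lysine 4 (H3K4) marks active promoters and enhancers, H3K36 methylation marks transcribed gene bodies, and H3K9 and H3K27 methylation mark silent chromatin. The oocyte stores many of these transcripts, and the early embryo degrades maternal copies while it begins to transcribe its own genome and remodels both parental sets of marks.

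The libraries held 7611781 to 15559218 reads, so that 1 read equalled 0.0643 to 0.131 CPM (counts scaled to a common library total). Where no read was found, 3 reads (0.193 to 0.394 CPM) could still have gone unseen. Such limits cover counting error only. Control library SPN A stood apart: it was the lowest of the 3 SPN libraries in 33 of 50 members (66%) and in 45.7% of all genes tested, and results are given with and without it. All 10 oocyte markers had reads, with summed levels of 1028 to 1606 CPM in SPN, 788 to 1288 CPM in EPN and 650 to 854 CPM in LPN. All 6 markers of the 2-cell embryo had reads, at 1175 to 2769 CPM in SPN, 3183 to 4532 CPM in EPN and 3707 to 5801 CPM in LPN. Of other cell types, the 5 measured markers of 8 for cumulus and granulosa cells summed to 6.56 to 12.7 CPM in SPN, 13.1 to 26 CPM in EPN and 8.81 to 19.1 CPM in LPN, with Foxl2 at 0 and Tnfaip6 holding most of the sum, and the 4 of 6 measured sperm markers to 1.8 to 12.3 CPM. The 2 of 6 measured blood markers, both alpha globins, summed to 36 to 100 CPM in SPN, 33.9 to 79.8 CPM in EPN and 9.32 to 26.1 CPM in LPN. The 7 of 8 measured markers of trophectoderm and inner cell mass summed to 64.4 to 92.2 CPM in SPN, 38.4 to 98.4 CPM in EPN and 26.5 to 47.2 CPM in LPN. The summed oocyte, 2-cell, blood and trophectoderm lists did not overlap between LPN and SPN, and the summed 2-cell and cumulus lists did not overlap between EPN and SPN. The oocyte sum rested on Bmp15: without it the ranges were 550 to 907 CPM in SPN and 478 to 565 CPM in LPN, which overlap, and Zp3 was higher in LPN (147 to 230 CPM) than in SPN (69.4 to 105 CPM). Without Gata4 the trophectoderm and inner cell mass ranges were 24.4 to 54.2 CPM in SPN and 13.6 to 24.7 CPM in LPN, which overlap. The blood sum was nearly all Hba-a1, and without it the ranges overlapped (0 to 0.931 CPM in SPN, 0 to 0.263 CPM in LPN). Without Tnfaip6 the cumulus ranges of SPN (1.86 to 4.9 CPM) and EPN (0.781 to 2.31 CPM) overlapped. Only the 2-cell sums stayed apart without their top gene, Usp17lb (886 to 1713 CPM in SPN, 2340 to 3450 CPM in LPN). The part of these markers in the results was not tested. In pools of whole embryos, fewer cells of a type and less RNA per cell cannot be told apart.

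Compared per length, as mean CPM per kb of exon over the 9 libraries, the highest levels in the family belonged to the PRC2 subunit gene Suz12 at 102, the H3K36 methyltransferase gene Setd2 at 55, and Kdm4dl at 48.3. Eed, which binds the H3K27me3 mark within PRC2, stood at 39, and Ezh2, the catalytic subunit of that complex, at 38. Setdb2, an H3K9 methyltransferase gene, followed at 36.9 and the H3K4 demethylase gene Kdm5b at 27.1. The order below Suz12 differed by group: in SPN Setd2, at 40, came after Eed (47.6), Ezh2 (45.4) and Kdm4dl (44.4), and in LPN Setd2, at 67.9, and Setdb2, at 45.2, came directly after Suz12 at 72.2. These orders are of group means and were not tested. At the other end lay Kmt2a at 0.174 and Setd7 at 0.084, both H3K4 methyltransferase genes. Kmt2c stood at 14.3, above the other H3K4 methyltransferase genes, while the H3K9 methyltransferase genes ran from 1.75 for Ehmt2 to 36.9 for Setdb2.

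**Figure D1:**
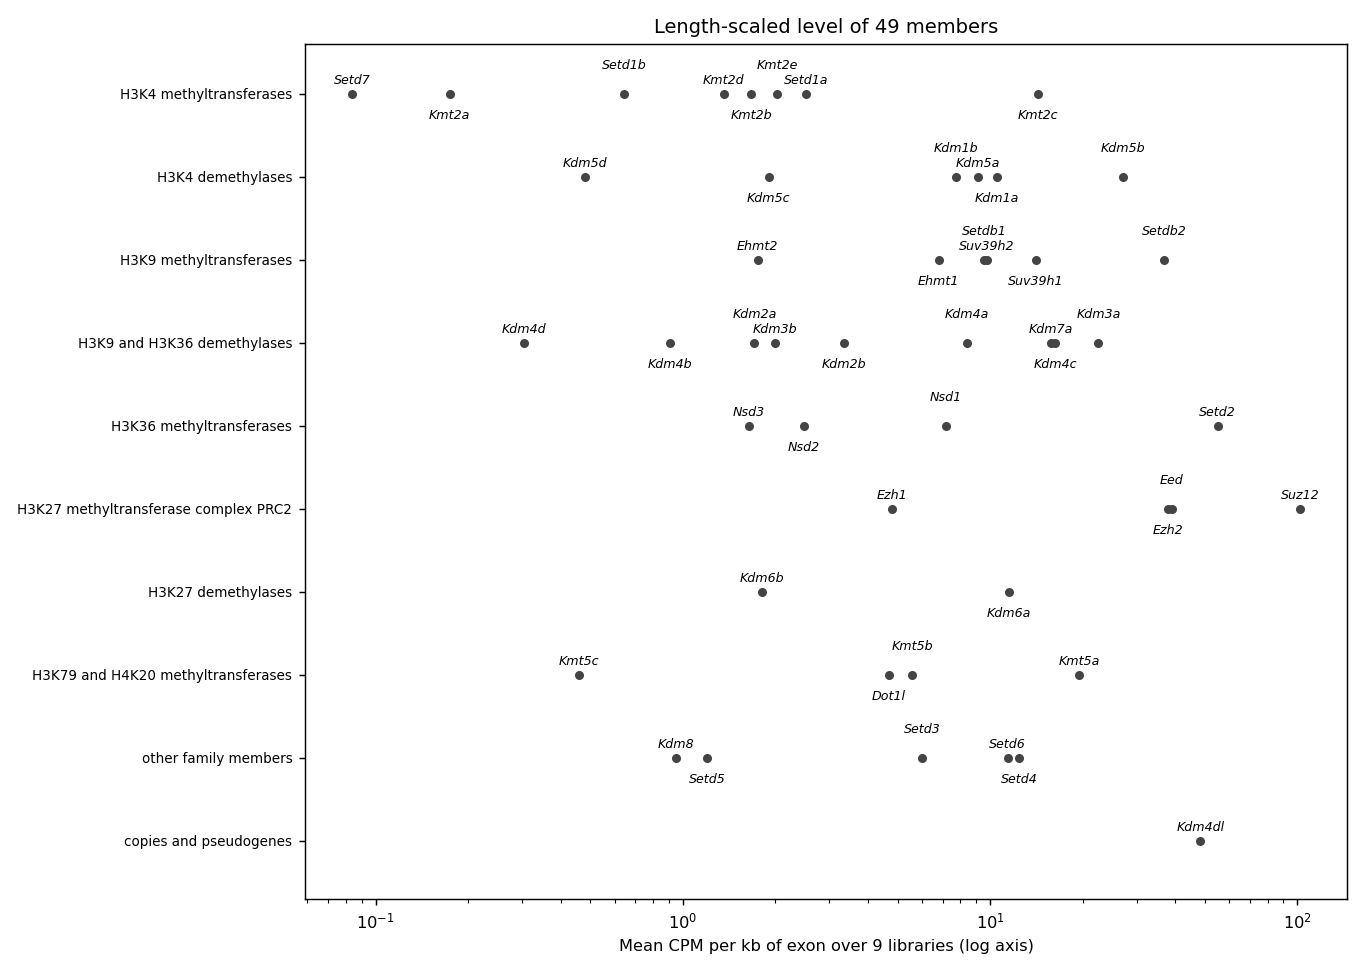
Length-scaled levels of the 49 members with an exon length, by role: the horizontal log axis is mean CPM per kb of exon over 9 libraries, and each point is 1 gene. Suz12, at 102, lies farthest to the right and Setd7, at 0.084, farthest to the left.

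In the later transfer group the test called 3 of 50 members lower than in the sham control and none higher. They are Kdm1b, the H3K4 demethylase that acts in the growing oocyte at imprinted loci, Kdm6b, a Jumonji H3K27 demethylase, and Kmt2d, a methyltransferase of H3K4 at enhancers. They fell by factors of 2.73 to 3.82 on the scale of log2(CPM + 1). The test was limma's moderated test with Benjamini-Hochberg adjustment over all genes, and genes with an adjusted p under 0.05 are said to be called. The 3 members are 6% of the 50, and 8.8% of all genes tested were called, 5.54% of all genes being called lower, so the share of members is near the background and is not a result about them. Over all genes 485 were called higher and 824 lower, and with median-of-ratios scaling the split was 663 higher and 541 lower, while 3 members, all lower, were called under either scaling.

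The upstream sequences of Kdm1b, Kmt2c and Kmt2d, 3 of the 4 members called in any comparison (Kdm6b is the other), are shown for the kind of promoter that stands before them. Each is the 250 bases before the RefSeq start on GRCm38.p6, read 5′ to 3′ on the gene's strand: Kdm1b at chr13:47043249-47043498 on the plus strand, Kmt2c at chr5:25498784-25499033 on the minus strand and Kmt2d at chr15:98871206-98871455 on the minus strand. Capitals mark GC boxes, searched as GGGCGG on both strands, neighbouring matches being allowed to overlap.
Kdm1b: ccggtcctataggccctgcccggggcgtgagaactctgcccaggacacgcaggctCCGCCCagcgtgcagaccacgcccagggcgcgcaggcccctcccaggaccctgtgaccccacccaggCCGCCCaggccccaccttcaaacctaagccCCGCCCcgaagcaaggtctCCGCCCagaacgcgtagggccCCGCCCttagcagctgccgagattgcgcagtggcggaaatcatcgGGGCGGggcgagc
Kmt2c: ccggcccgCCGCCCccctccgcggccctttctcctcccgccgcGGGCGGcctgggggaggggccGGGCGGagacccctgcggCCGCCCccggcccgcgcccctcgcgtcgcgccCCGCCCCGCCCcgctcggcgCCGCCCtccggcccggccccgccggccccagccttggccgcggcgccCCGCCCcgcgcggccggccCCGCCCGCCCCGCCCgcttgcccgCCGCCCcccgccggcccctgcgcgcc
Kmt2d: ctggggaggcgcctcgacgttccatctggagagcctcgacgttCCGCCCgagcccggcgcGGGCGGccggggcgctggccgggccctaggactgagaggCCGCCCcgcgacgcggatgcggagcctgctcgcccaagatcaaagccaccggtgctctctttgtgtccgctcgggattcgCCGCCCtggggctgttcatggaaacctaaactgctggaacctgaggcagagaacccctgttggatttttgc
The Kdm1b window holds 6 GC boxes and 22 CpG dinucleotides, the Kmt2c window 12 and 48, and the Kmt2d window 4 and 26. RefSeq entries were matched for 37 of the 50 members, with 49 starts between them. A GC box was found in 31 of these 49 windows (63.3%) and in 32.7% of all 32851 windows of that length, and the median CpG number was 21 in the members and 6 in all. The CCAAT box (CCAAT, both strands) occurred in 40.8% of member windows and 33.8% of all. A TATA box (TATAAA, both strands) occurred in 2.04% of member windows and 12.4% of all. Neither of these motifs, nor the cAMP response element TGACGTCA or the NRF1 core CGCATGCG, was found in the windows of Kdm1b, Kmt2c and Kmt2d. A match of letters is a description and not a binding site, and the deposited values do not say which start was used.

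Among the H3K4 demethylases, Kdm1b measured 44.6, 66.7 and 75.8 CPM in SPN A, B and C, 54.1, 40.2 and 38.7 CPM in EPN, and 23.5, 13.5 and 25.1 CPM in LPN. All LPN libraries lay below all libraries of the other groups, while EPN and SPN overlapped. The LPN level was 2.94-fold lower than in SPN (log2 change -1.56, SE 0.38, limma adjusted p = 0.0116). The call was kept in 16 of 19 alternative analyses and was lost without SPN B (adjusted p = 0.0528), without SPN C (0.097) and without LPN B (0.0879). Kdm1a, the other flavin-dependent demethylase, had 22.7 to 60.9 CPM in SPN and 38.8 to 70.6 CPM in LPN, which overlap (log2 difference 0.21, adjusted p = 0.762). Kdm5b, a Jumonji H3K4 demethylase with the highest CPM of this group, measured 373, 456 and 475 CPM in SPN, 485, 430 and 571 CPM in EPN and 291, 326 and 628 CPM in LPN, and LPN C was the highest library of all. Kdm5a and Kdm5c also overlapped between LPN and SPN. The Y-linked Kdm5d had 1 read in EPN A (0.0723 CPM) and 2.01 to 14.2 CPM in the other libraries. The 3 other Y-linked genes followed, Uty, Ddx3y and Eif2s3y, had no read in EPN A.

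Of the H3K27 demethylases, Kdm6b measured 13.3, 19 and 30.3 CPM in SPN, 11.2, 9.14 and 15.7 CPM in EPN, and 3.08, 2.89 and 9.05 CPM in LPN. LPN lay below both other groups without overlap, though LPN C and EPN B nearly touched, and LPN C was well above LPN A and B. The LPN level was 3.82-fold lower than in SPN (log2 change -1.93, SE 0.55, adjusted p = 0.0282). LPN B rested on 22 reads and LPN A on 48. The call was kept in 12 of 19 alternatives and was lost without SPN B (adjusted p = 0.0717), SPN C (0.173), LPN A (0.0955) or LPN B (0.125). The X-linked paralog Kdm6a measured 97.4, 101 and 155 CPM in SPN, 134, 79.4 and 109 CPM in EPN and 58, 82 and 49.8 CPM in LPN. Its LPN libraries lay below all SPN libraries, but the difference was not called (log2 difference -0.88, adjusted p = 0.0766, and 0.0345 without SPN A). Kdm6a, Kdm5c and Suv39h1 are X-linked, and the pools differed in Y-linked reads. The 4 Y-linked genes summed to 28.4 to 99.4 CPM in SPN, 0.0723 to 94.1 CPM in EPN and 51.3 to 141 CPM in LPN. The part of embryo sex in the X-linked levels was not tested.

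Of the 8 H3K4 methyltransferases 7 had negative LPN against SPN differences, beside 57% of all genes. The group median was -0.87 against -0.17 over all genes, and 1 was called. Kmt2d measured 22.6, 44.8 and 47.5 CPM in SPN, 38.6, 27.9 and 23.8 CPM in EPN, and 11.2, 9.85 and 18.4 CPM in LPN. The LPN libraries were the lowest of the 9, and the lowest EPN and SPN libraries lay close to LPN C. The LPN level was 2.73-fold lower than in SPN (log2 change -1.45, SE 0.43, adjusted p = 0.0337). The call was kept in 12 of 19 alternatives and was lost without SPN B (adjusted p = 0.119), SPN C (0.179), LPN A (0.0988) or LPN B (0.137). The Kdm6b and Kmt2d calls were also lost with no filter on low values (0.0618 and 0.0611), in a fit of LPN and SPN alone (0.0545 and 0.0656) and with edgeR (0.0587 and 0.0561). Kmt2b, which methylates H3K4 in the oocyte, measured 12.7, 22.2 and 30.4 CPM in SPN and 11.4, 2.63 and 11.6 CPM in LPN, with no call (log2 difference -1.38, adjusted p = 0.094). Setd1a and Setd1b, the catalytic subunits of the complexes that trimethylate H3K4 at promoters, had log2 differences of -0.99 and -1.07 with adjusted p = 0.197 and 0.24. Kmt2e, grouped here by its family name and not by a measured activity, was the only positive member of the group, with a difference of 0.14.

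**Figure D2:**
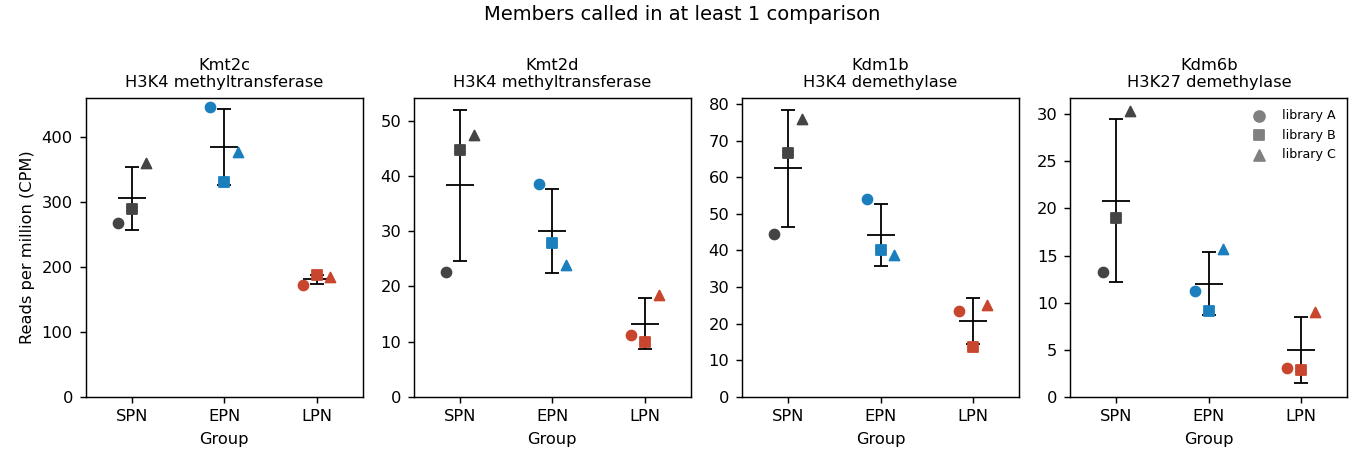
CPM in each of the 9 libraries for the 4 members called in any comparison, with each group's mean and SD over 3 libraries. For Kdm1b, Kdm6b and Kmt2d the LPN points lie below all SPN points, and Kmt2c in LPN lies at 173 to 187 CPM below EPN at 331 to 447 CPM.

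Of the PRC2 core genes none was called. All 4 had negative LPN against SPN differences, with a median of -0.53, beside 57% negative and -0.17 over all genes. Suz12, the scaffold subunit, measured 382, 838 and 854 CPM in SPN, 499, 455 and 448 CPM in EPN, and 341, 381 and 349 CPM in LPN. SPN A lay beside the LPN libraries and far below SPN B and C. With all libraries the log2 difference was -0.86 (SE 0.29, adjusted p = 0.0546), and without SPN A it was -1.24 (adjusted p = 0.00104). Ezh2 measured 214, 319 and 376 CPM in SPN and 203, 225 and 180 CPM in LPN, and it was called only when SPN A was left out (adjusted p = 0.0307). Eed and Ezh1, the latter the alternative catalytic subunit, were not called in either case.

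Among the H3K36 methyltransferases Setd2, which trimethylates H3K36 on transcribed genes and is needed for the oocyte's methylome, stood in the opposite direction to most members. It measured 551, 406 and 334 CPM in SPN, 604, 552 and 684 CPM in EPN, and 742, 744 and 705 CPM in LPN. The 3 groups followed each other without overlap, SPN lowest and LPN highest, though SPN A and EPN B nearly touched. The LPN against SPN difference was 0.79 on the log2 scale (SE 0.26, adjusted p = 0.054) and was 0.99 without SPN A (adjusted p = 0.00539). Nsd1, Nsd2 and Nsd3, which dimethylate H3K36, had differences of -0.56, -1.06 and -0.29, none called with all libraries, and Nsd2 was called without SPN A (adjusted p = 0.0107).

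None of the 9 H3K9 and H3K36 demethylases was called in LPN against SPN. Of the 8 with reads in SPN, 4 had positive and 4 had negative differences (median -0.10). Kdm3a, an H3K9 demethylase with the highest CPM of the group, measured 252, 243 and 198 CPM in SPN, 215, 183 and 165 CPM in EPN, and 144, 127 and 140 CPM in LPN. LPN lay below both other groups, with a log2 difference to SPN of -0.74 (adjusted p = 0.0813). Kdm4c, an H3K9 and H3K36 demethylase, lay the other way, at 91.2, 56.6 and 59.4 CPM in SPN and 104, 110 and 132 CPM in LPN (log2 difference 0.76, adjusted p = 0.118). Kdm7a, a demethylase of H3K9 and H3K27, had 134 to 203 CPM in SPN and 105 to 127 CPM in LPN (log2 difference -0.60, adjusted p = 0.179). Kdm2b, a demethylase that binds CpG islands, had 28.3 to 32.9 CPM in SPN and 36.3 to 59.2 CPM in LPN, without overlap, and its paralog Kdm2a had 10.8 to 47.9 and 9.7 to 27.5 CPM, with overlap. Kdm4d had no read in any SPN library, where up to 0.215 to 0.266 CPM would go unseen, and 0.9, 1.58 and 2.35 CPM in LPN. It passed the filter through EPN and LPN libraries alone, and no fold is given. Kdm4d and its near copy Kdm4dl can share reads, so the split between them is uncertain, and Kdm4dl ranged from 15.7 to 117 CPM within SPN alone.

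The 6 H3K9 methyltransferases were divided as well, 3 positive and 3 negative with a median of 0.07, and none was called. Setdb2, with the highest CPM of them, measured 161, 115 and 92.9 CPM in SPN, 112, 135 and 180 CPM in EPN, and 150, 182 and 217 CPM in LPN, so the groups overlap. Suv39h2, a heterochromatin methyltransferase, measured 35.6, 51.8 and 72.2 CPM in SPN, 54.1, 47.8 and 52.7 CPM in EPN, and 23.2, 24 and 25.3 CPM in LPN. The LPN libraries were close to each other and below all others, and the difference to SPN was -1.05 on the log2 scale (adjusted p = 0.062, and 0.0117 without SPN A). Its X-linked paralog Suv39h1 had 51.1 to 122 CPM in SPN and 46.4 to 54.4 CPM in LPN. Ehmt1 and Ehmt2, which together dimethylate H3K9, had differences of 0.56 and 0.55, and Setdb1, which silences retroelements, of -0.41.

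The H3K79 and H4K20 methyltransferases held no call. Kmt5a, which monomethylates H4K20, measured 116, 68.4 and 100 CPM in SPN, 129, 89.4 and 125 CPM in EPN, and 97.9, 68.3 and 137 CPM in LPN, with overlapping groups. Kmt5b, which dimethylates H4K20, had 75.4 to 107 CPM in SPN and 93.7 to 98.2 CPM in LPN, and its paralog Kmt5c stayed at or below 5.69 CPM in each library. Dot1l, which methylates H3K79, measured 21.4, 80.4 and 83.9 CPM in SPN and 22.2, 20.6 and 29.8 CPM in LPN. SPN A again lay at the LPN level, and the log2 difference was -1.11 with all libraries (adjusted p = 0.0932) and -1.74 without SPN A (adjusted p = 0.00244). The remaining family members all had negative differences (5 of 5, median -0.88, beside 57% and -0.17 over all genes) and no call. Setd4 had the highest CPM of these, at 54.4, 117 and 113 CPM in SPN, 61.2, 68.3 and 58.3 CPM in EPN, and 53.5, 35.1 and 40.9 CPM in LPN (log2 difference -1.06, adjusted p = 0.0507). Setd3, an actin histidine methyltransferase, and Setd6 also had LPN libraries below all SPN libraries, with differences of -0.84 and -1.20, while Setd5 (-0.88) and Kdm8 (-0.54) overlapped. SPN A and LPN A nearly touched for Setd4 (54.4 and 53.5 CPM) and for Setd6 (14.9 and 14.5 CPM). The pseudogene Setd9-ps was at 0.723 to 9.33 CPM over the 9 libraries.

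Across the family the median LPN against SPN difference was -0.52 on the log2 scale, beside -0.17 over all genes, and 35 of 50 members (70%) were negative beside 57% of all genes. With median-of-ratios scaling the median was -0.35 and 32 members were negative, beside -0.03 and 51.1% over all genes. Relative to all genes the members' median was -0.35 as deposited and -0.32 with that scaling. The LPN and SPN libraries did not overlap in 19 of 50 members (38%), 15 lower and 4 higher, beside 27.5% of all genes. Among the lower, SPN A nearly touched the highest LPN library for Suz12 (382 and 381 CPM), Setd4 and Setd6. One of the 4 higher was Kdm4d, which had no SPN read, and among the 49 other members the count was 18 (36.7%). Without SPN A 19 members (38%) were called, 15 lower and 4 higher, beside 18.4% of all genes. SPN A was the lowest SPN library in 66% of members and in 45.7% of all genes. The shares without it are therefore not independent of the choice of this library. The 4 called higher were Setd2, Kdm4a, Kdm4c and Kdm4dl, and the 15 called lower included 4 of the 8 H3K4 methyltransferases (Kmt2b, Kmt2c, Kmt2d and Setd1a) and both H3K27 demethylases. The number called was 0 without SPN B, SPN C or LPN B and 1 without LPN A, so single libraries set how many members pass.

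**Figure D3:**
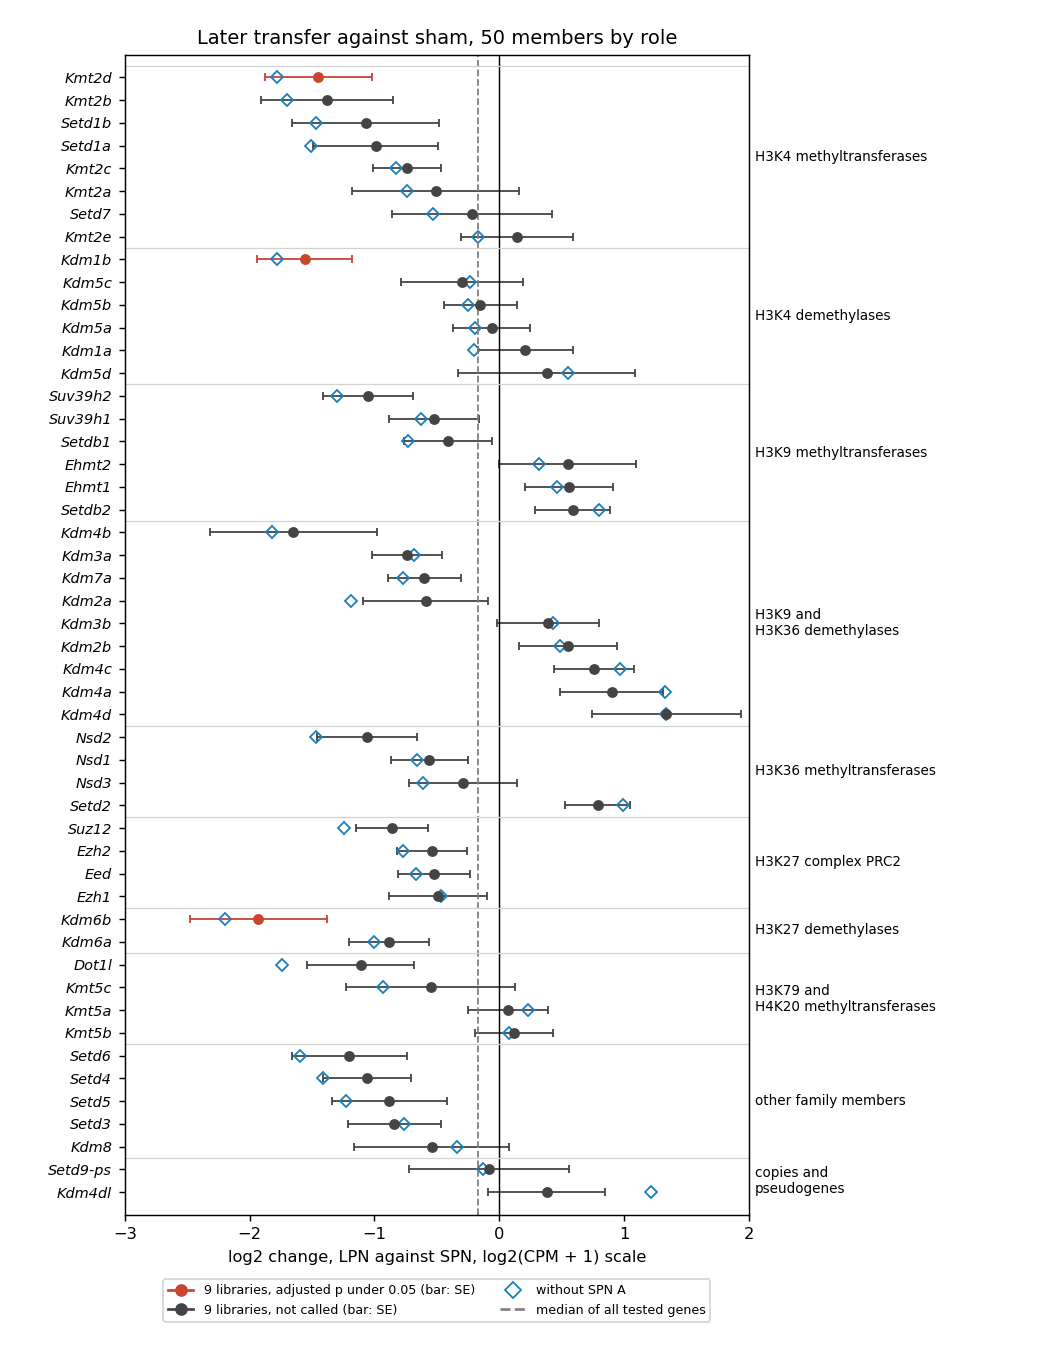
LPN against SPN differences on the log2(CPM + 1) scale for the 50 members, grouped by role: filled points are the fit of all 9 libraries with bars of 1 SE (red where called), open diamonds the fit without SPN A, and the dashed line the median of all genes, -0.17. The called members Kdm1b, Kdm6b and Kmt2d lie at -1.56, -1.93 and -1.45 and Setd2 lies at 0.79, while the point of Kdm4d is a fitted value for a gene with no SPN read.

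In the early transfer group no member was called against SPN, beside 0.108% of all genes. edgeR and DESeq2 also called none, and 4 of 50 members (8%) had an unadjusted p under 0.05, beside 11% of all genes. These 4 were Kdm4a, Kdm8, Kdm3b and Kdm4b. Kdm4a, a demethylase of H3K9 and H3K36, measured 45.4, 23.9 and 13.6 CPM in SPN, 90.5, 46.2 and 72 CPM in EPN, and 37, 40.7 and 68.6 CPM in LPN. Each EPN library lay above each SPN library, though EPN B only just above SPN A. The log2 difference was 1.41 (SE 0.41, 2.65-fold, adjusted p = 0.168), and without SPN A it was 1.84 (adjusted p = 0.0143).

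Kdm8, a Jumonji protein with debated demethylase activity, measured 5.23, 2.3 and 4.11 CPM in SPN, 0.361, 0.859 and 0.375 CPM in EPN, and 3.86, 1.71 and 1.59 CPM in LPN. EPN was the lowest group without overlap, at levels of a few reads (log2 difference -1.64, SE 0.62, 3.12-fold, adjusted p = 0.312). Kdm3b, an H3K9 demethylase, measured 20.9, 20.2 and 17.8 CPM in SPN, 30.6, 44.1 and 36.5 CPM in EPN, and 21.9, 19.8 and 40 CPM in LPN. EPN lay above SPN without overlap (log2 difference 0.87, SE 0.41, 1.83-fold, adjusted p = 0.428). Kdm4b, the paralog of Kdm4a, measured 5.95, 8.24 and 9.54 CPM in SPN, 7.81, 0.547 and 1.87 CPM in EPN, and 1.09, 1.18 and 3.77 CPM in LPN. EPN A lay within the SPN range and the other EPN libraries below it (log2 difference -1.37, SE 0.67, 2.59-fold, adjusted p = 0.452).

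The median EPN against SPN difference of the members was -0.16, beside -0.07 over all genes. EPN and SPN did not overlap in 7 members (14%), namely Setd2, Kdm3b and Kdm4a higher and Eed, Ezh1, Setd9-ps and Kdm8 lower, beside 14.6% of all genes. Without SPN A 3 members (6%) were called, Kdm4a and Kdm4dl higher and Suz12 lower, beside 3.03% of all genes. These shares too are not independent of the choice of SPN A.

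Between the later and the early transfer 1 of 50 members (2%) was called, beside 1.53% of all genes, which is near the background. That member is Kmt2c, the paralog of Kmt2d that monomethylates H3K4 at enhancers and the H3K4 methyltransferase gene with the highest CPM. It measured 268, 289 and 360 CPM in SPN, 447, 331 and 377 CPM in EPN, and 173, 187 and 184 CPM in LPN. The LPN libraries lay close together and far below all others, while the SPN and EPN ranges overlapped. The LPN level was 2.1-fold lower than in EPN (log2 change -1.07, SE 0.27, adjusted p = 0.0389), and the difference to SPN was -0.74 (adjusted p = 0.0744). The call was kept in 10 of 19 alternatives, and was lost with median-of-ratios scaling (log2 difference -0.94, adjusted p = 0.0755), a pseudocount of 0.1 CPM (0.0573), no filter (0.0942) or edgeR (0.1), and without EPN A (0.213), EPN B (0.0575), EPN C (0.143), LPN A (0.129) or LPN B (0.173).

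LPN and EPN did not overlap in 23 members (46%), 18 lower and 5 higher, beside 26.6% of all genes. The 5 higher in LPN were Setd2, Kmt5b, Ehmt2, Setd9-ps and Kdm8. The median difference was -0.45, beside -0.14 over all genes, and 37 of 50 members (74%) were negative, beside 56.7% of all genes. Without SPN A, which enters this comparison only through the shared estimate of the spread, 3 members (6%) were called, Kmt2c, Nsd2 and Suv39h2, all lower, beside 5.12% of all genes. The 3 comparisons share their libraries in pairs, so their values are given side by side and are not independent of each other.

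**Figure D4:**
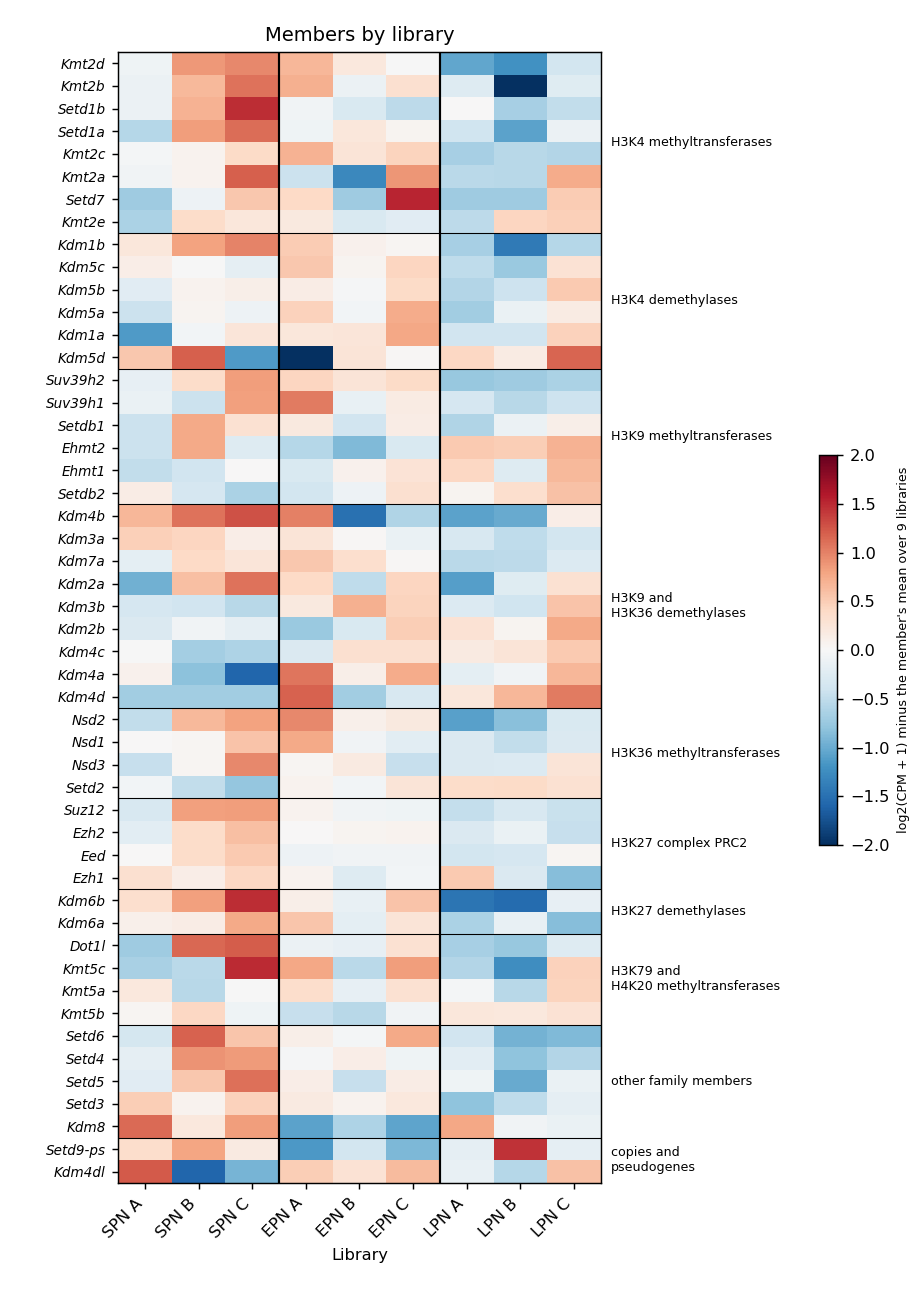
Level of each of the 50 members in each of the 9 libraries relative to its own mean over them, on the log2(CPM + 1) scale with colours ending at -2 and 2, ordered by role. SPN A is the lowest SPN library in 33 of 50 members, and Kdm5d in EPN A, at 1 read, is the lowest entry of its row.

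The partners of these enzymes were followed in lists of complex subunits and related enzymes, 74 genes tested in all. These lists too were chosen with earlier results of these data known. No such gene was called between EPN and SPN, and without SPN A 5 (6.76%) were, Riox2, Mphosph8, Pphln1 and Hdac1 higher and Prmt6 lower, beside 3.03% of all genes. Between LPN and SPN 14 (18.9%) were called, 6 higher and 8 lower, beside 8.8% of all genes, and without SPN A 24 (32.4%) were, beside 18.4%. The calls of Ezhip, Prdm9, Dpy30 and Prmt7 were kept in 4, 6, 7 and 7 of 19 alternatives, and that of Phc2 in 9, so these calls are lost in most of them. Of the 11 subunits of the H3K4 methyltransferase complexes 3 were called lower in LPN than in SPN. Negative differences held for 10 of them, beside 57% of all genes, and the median was -0.91, beside -0.17. Wdr82, the subunit of the Setd1 complexes that binds RNA polymerase II, went from 107 ± 58.4 CPM (SD, n = 3) in SPN to 32.5 ± 7.15 CPM in LPN (2.82-fold, adjusted p = 0.0192). Its SPN A value, 39.6 CPM, lay beside LPN C (39 CPM) and far below SPN B and C (135 and 145 CPM). Psip1, a reader of H3K36 methylation, went from 480 ± 189 to 193 ± 19.5 CPM (2.33-fold, adjusted p = 0.0118). For Psip1 too SPN A, at 262 CPM, lay far below SPN B and C (605 and 573 CPM). Dpy30, a subunit shared by all these complexes, went from 471 ± 97 to 252 ± 69.9 CPM (1.88-fold, adjusted p = 0.0388, and 0.123 with median-of-ratios scaling).

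The 8 cofactors of PRC2 were divided, 4 positive and 4 negative in LPN against SPN. Their median log2 difference was 0.01, beside -0.17 over all genes. Mtf2 lay higher in LPN (756 to 1036 CPM) than in SPN (421 to 706 CPM) but was not called (limma adjusted p = 0.0859). Phf1, which reads H3K36 methylation, fell from 47 ± 24.3 to 11 ± 2.76 CPM (3.7-fold, adjusted p = 0.0109). Ezhip, an inhibitor of PRC2 in germ cells, fell 1.94-fold (adjusted p = 0.0436, and 0.171 with median-of-ratios scaling). Its groups were not separate, as SPN C and LPN A both stood at 716 CPM. The 13 tested genes of Polycomb repressive complex 1, which ubiquitinates histone H2A, moved both ways. Pcgf5, a subunit of a variant complex, rose from 336 ± 73.6 to 772 ± 105 CPM (2.32-fold, adjusted p = 0.0071) and was higher than in EPN as well (2.12-fold, adjusted p = 0.0389, and 0.053 with median-of-ratios scaling). Pcgf1, another such subunit, rose 1.97-fold (adjusted p = 0.0309). Bmi1 and Phc2, subunits of the canonical complex, fell 2-fold and 2.35-fold (adjusted p = 0.0277 and 0.0387, and 0.0953 and 0.0565 with median-of-ratios scaling). The Phc2 groups overlapped, at 55.2 to 162 CPM in SPN and 29 to 69.6 CPM in LPN.

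Of the 10 partners and readers of H3K9 methylation 1 was called: Pphln1, a subunit of the silencing complex HUSH, rose from 202 ± 100 to 440 ± 23.4 CPM (2.37-fold, adjusted p = 0.0118). Riox2, a Jumonji hydroxylase of ribosomal protein, rose from 50 ± 24.9 to 152 ± 34.7 CPM (3.22-fold, adjusted p = 0.00447), and Prdm9, the H3K4 methyltransferase that places meiotic recombination, rose 2.66-fold (adjusted p = 0.0459). Of the 8 tested arginine methyltransferases Prmt7 rose 2.43-fold (adjusted p = 0.046). Prmt2 fell 2.48-fold (adjusted p = 0.03, and 0.0588 with median-of-ratios scaling), and it was also 2.78-fold lower in LPN than in EPN (adjusted p = 0.04, and 0.0661 with median-of-ratios scaling). The 7 partners of Kdm1a and Kdm1b held no call, but without SPN A the deacetylase gene Hdac1 was called higher both in EPN (adjusted p = 0.00781) and in LPN (0.00124) than in SPN. Hdac1 measured 317, 135 and 120 CPM in SPN A, B and C. It measured 296, 302 and 337 CPM in EPN and 322, 272 and 373 CPM in LPN. SPN A thus lay within both transfer ranges, and with it the limma adjusted p was 0.293 in EPN and 0.0635 in LPN. Without SPN A the calls in LPN against SPN were kept for 12 of these 14 genes and lost for Ezhip (adjusted p = 0.118) and Prmt2 (0.0609).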

How the data were processed

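The 9 poly(A) RNA libraries were amplified with the Smart-seq2 v4 kit and read as 150-bp paired ends, per the labels' protocols. Trim Galore 0.6.7, HISAT2 2.2.1, R 3.3.3, edgeR and GRCm39 are named in the submitters' processing notes with no role, while the read counter and annotation are not given in the sources used here. Deposited by the authors were CPM values for 19359 genes, the reads of a gene over those of its library. In each library 100% of the values were whole multiples of 1 read within 0.01 reads, so whole reads were recovered, and the table left out 3.66% to 5.68% of a library's reads.

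Testing covered the genes that reached 1 CPM in 3 or more of the 9 libraries, in a single limma model (limma 3.58.1 in R 4.3.3) on log2(CPM + 1), with a trended prior, 6 residual and 25.9 prior degrees of freedom, two-sided contrasts and Benjamini-Hochberg adjustment. That scale understates changes of low genes. Alternatives were edgeR 4.0.16 and DESeq2 1.42.0 on the recovered reads, other scalings, filters and pseudocounts, a replicate block, and leaving out each library. The scripts were tested on simulated data. Exon lengths for levels per kb came from GENCODE vM21, an older assembly than the authors', for 49 members. Promoters came from RefSeq on GRCm38.p6.

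Values are printed for each called member, for the 4 smallest p-values where a comparison had no call, for the member of highest CPM in each role and for each called gene of the partner lists. Other members with values, such as those near the threshold, were chosen after their values were seen. The members and lists were chosen with earlier results of these data known.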

Additional observations from a re-analysis of the deposited data

How the results depend on the processing

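Members called in LPN against SPN numbered 3, and 1 with no filter on low values, 7 with a mean of at least 5 CPM, 1 in a 2-group fit, 17 with array quality weights, 1 with edgeR, 6 with DESeq2, and 0 to 19 on leaving out each library in turn. In LPN against EPN the count of 1 became 0 with a pseudocount of 0.1 CPM, with no filter, with median-of-ratios scaling and with edgeR, 5 with weights, 3 with DESeq2, and ranged from 0 to 3 on leaving out each library. In EPN against SPN the count of 0 became 1 with weights and ranged from 0 to 3. The 4 called members and the 4 members with the smallest p in EPN against SPN kept their direction in their 18 or 19 alternatives (the mean filter removed Kdm8 and Kdm4b). Small differences of uncalled members did not: in LPN against SPN, Kmt2e ranged from -0.23 to 0.46, Kdm1a from -0.20 to 0.49 and Nsd3 from -0.61 to 0.10. Over all genes, calls in EPN against SPN, LPN against SPN and LPN against EPN were 16, 1309 and 228; they were 0, 477 and 17 with edgeR, 116, 1890 and 926 with DESeq2, 313, 2731 and 1321 with weights, 0, 494 and 0 with no filter, and 0, 659 and 464 in 2-group fits. The median-of-ratios count was 3 in EPN against SPN, the 0.1 CPM pseudocount gave 4 there and 62 in LPN against EPN, and the mean filter gave 395 in LPN against EPN. Leaving out each library gave 0 to 451, 96 to 2733 and 4 to 762 calls over all genes. Some members came down to a few reads in single libraries, among them Kdm8, Kdm4d, Setd7, Kmt2a, Kmt5c and Kdm4b. The called member Kdm6b rested on 22 reads in LPN B, the library with the fewest reads. The part of depth in the results was not tested. The cause of these changes was not tested.

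Libraries with the same letter deviated together weakly at most (correlations of -0.02 to 0.09 over 9 pairs, beside -0.1 to 0.1 for other letters). Of the 9 libraries 6 correlated best with one of their own letter. No pair of the same letter exceeded 0.1, the limit chosen here, so the main test did not use the letters as pairing. Such a limit cannot tell a weak pairing from none. With the letter as a replicate block 0, 6 and 1 members and 25, 1644 and 480 genes were called in EPN against SPN, LPN against SPN and LPN against EPN. Without the block these were 0, 3 and 1 members and 16, 1309 and 228 genes.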
